A study of Mus musculus with 4 samples.

Results

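Cardiomyocytes, the contractile muscle cells of the heart, made up 642 of the 41542 filtered droplet barcodes (1.55%) in 4 single-cell RNA libraries from mouse heart. The cells were chosen by marker levels: a barcode was taken as a cardiomyocyte when Myh6, Actc1, Tnnt2, Tnni3 and Myl2, which encode a myosin heavy chain, cardiac actin, troponin T, troponin I and the ventricular myosin regulatory light chain, together held at least 100 of every 10,000 unique molecular identifiers (UMIs, each standing for 1 captured transcript). The same barcode had to hold under 20 per 10,000 of the complement genes C1qa, C1qb and C1qc that mark macrophages, under 20 per 10,000 of the fibroblast genes Col1a2, Dcn and Col3a1, and no UMI of the endothelial gene Cdh5 or the leukocyte gene Ptprc. Every barcode also had at least 500 UMIs, at least 200 genes and at most 20% of its UMIs from the mitochondrial genome. These values chose the cells, so the levels of the 13 genes in the rule are description and carry no test.

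The 4 libraries stood for 1 group each. The CLP plus stimulation library came from septic mouse heart with low-level stimulation of the tragus, the part of the outer ear served by a branch of the vagus nerve; its title names sepsis and its treatment label names the stimulation alone. The CLP library came from heart after cecal ligation and puncture, an operation that spills gut bacteria into the abdomen and brings on sepsis. The other libraries were labelled sham and control, and all 4 were labelled as all cells of the heart. The sources used here give no strain, sex, age or number of the mice and no time after surgery. By its title, the series asks about the stimulated septic heart and its macrophages. With 1 library per group no difference between groups has a replicate check, and none was tested. Intervals are 95% intervals that cover counting error only.

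A cardiomyocyte contracts when calcium enters through the cell membrane, releases more calcium from the sarcoplasmic reticulum through the ryanodine receptor, and binds troponin on the thin filament. The pump SERCA2, encoded by Atp2a2 and held back by phospholamban, returns the calcium and lets the muscle relax. The work is paid for mainly by mitochondrial oxidation of fatty acids. In sepsis the heart muscle is known to contract less well, and the liver and other tissues release acute phase proteins.

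The cardiomyocytes numbered 47 of 8645 filtered barcodes in the CLP plus stimulation library, 206 of 8331 in the CLP library, 163 of 8968 in the sham library and 226 of 15598 in the control library. Their share was 0.544% (exact binomial interval 0.400 to 0.722) in the CLP plus stimulation library, 2.47% (2.15 to 2.83) in the CLP library, 1.82% (1.55 to 2.12) in the sham library and 1.45% (1.27 to 1.65) in the control library. The CLP plus stimulation library had the lowest share and its interval met no other. The log2 ratio of shares was -2.19 (-2.67 to -1.72) for CLP plus stimulation over CLP, a share 4.55-fold lower. For CLP over sham it was 0.44 (0.14 to 0.75), and it turned to -0.18 when cardiomyocytes holding markers of other cell types were left out. For sham over control it was 0.33 (0.03 to 0.62), and for CLP plus stimulation over sham, which shares both of those libraries, -1.74 (-2.24 to -1.27). Leaving out those with other types' markers kept 19 cells with CLP plus stimulation, 65 with CLP, 79 in sham and 103 in control. Endothelial markers reached 20 per 10,000 UMIs in 31.9% of cardiomyocytes with CLP plus stimulation, 50.5% with CLP, 48.5% in sham and 50.9% in control. Neutrophil markers did so in 36.2% with CLP plus stimulation, 37.4% with CLP, 3.07% in sham and 2.65% in control. The shares are of all filtered barcodes, so they also depend on the numbers of other cells. Barcodes with a Cdh5 UMI numbered 919 with CLP plus stimulation, 2632 with CLP, 2275 in sham and 4287 in control. Those with C1qa, C1qb and C1qc at 20 per 10,000 or more numbered 3789, 1985, 3838 and 5486 in that order. The part of this make-up in the shares was not tested. Recovery of large cells in droplets and the number of cardiomyocytes in the tissue cannot be told apart from the shares of cardiomyocytes.

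**Figure D1:**
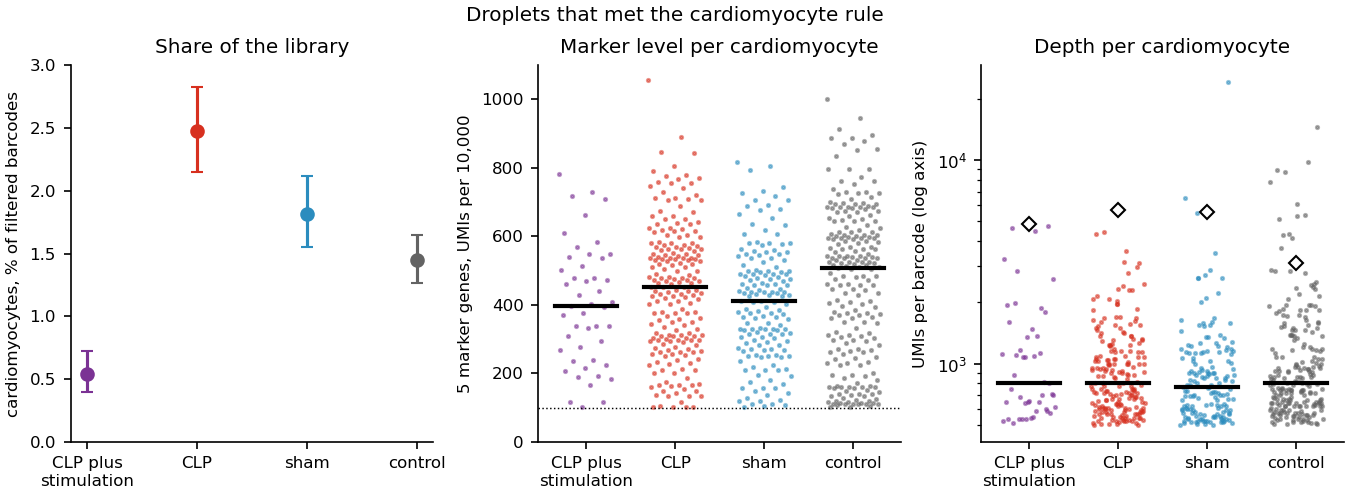
The left panel plots the share of filtered barcodes that were cardiomyocytes, with exact 95% binomial intervals; the middle panel plots the 5 marker genes per 10,000 UMIs in each cardiomyocyte (dots), with the median (line) and the threshold of 100 (dotted); the right panel plots UMIs per cardiomyocyte on a log axis, with the median of the other filtered barcodes (diamonds). The CLP plus stimulation share of 0.544% lies below the other 3, and in every library the cardiomyocytes' median depth lies below that of the other barcodes.

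The cardiomyocytes were shallow. Their median depth was 806 UMIs in the CLP plus stimulation library, 803.5 in the CLP library, 766 in the sham library and 805 in the control library, against 4868 UMIs with CLP plus stimulation, 5711 with CLP, 5565 in sham and 3123.5 in control in the other barcodes of the same libraries. Of the 642 cells 421 had under 1000 UMIs. Summed over cells, cardiomyocyte UMIs came to 60212 with CLP plus stimulation, 212466 with CLP, 184064 in sham and 299822 in control, so the CLP plus stimulation library sets the precision of every comparison it enters. A few deep barcodes carried much of each sum: the deepest held 7.88% with CLP plus stimulation, 2.09% with CLP, 13.1% in sham and 4.84% in control of the cardiomyocyte UMIs, and in the sham library it had 24072 UMIs. Values that rest on such barcodes are given below with and without the cells over 3000 UMIs, which numbered 4 with CLP plus stimulation, 5 with CLP, 4 in sham and 13 in control. Of the 642 barcode sequences, 5 also occurred in another of the 4 libraries, 3 of them in the CLP library and 2 in the control library.

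Signs of RNA quality set the cardiomyocytes apart from the other barcodes in every library. The median mitochondrial share of a cardiomyocyte was 8.27% with CLP plus stimulation, 7.41% with CLP, 9.17% in sham and 6.59% in control, against 2.30% with CLP plus stimulation, 3.64% with CLP, 3.51% in sham and 2.62% in control in the other barcodes. Another 201 barcodes met all other conditions but had between 20% and 50% mitochondrial UMIs, 30 with CLP plus stimulation, 47 with CLP, 53 in sham and 71 in control. Malat1, a long RNA kept in the nucleus, stood at 1096 CPM (counts scaled to a total of 1000000, of the summed cardiomyocyte UMIs) with CLP plus stimulation, 1605 CPM with CLP, 5384 CPM in sham and 7361 CPM in control, against 18617 CPM with CLP plus stimulation, 19554 with CLP, 21954 in sham and 28112 in control in the other barcodes. Summed over cells, Malat1 was thus lowest in both septic libraries, but the typical cell differed less. The median cell held 12.5 per 10,000 UMIs with CLP plus stimulation, 10.1 with CLP, 12.7 in sham and 15.8 in control. In sham and control the highest single cells reached 1152 and 939 per 10,000. What these measures do to the comparisons below was not tested.

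The label held in the genes that the rule did not use. The 15 further cardiomyocyte genes together took a median of 679 of 10,000 UMIs per cell with CLP plus stimulation, 719 with CLP, 622 in sham and 734 in control, against 2.04 with CLP plus stimulation, 5.52 with CLP, 4.93 in sham and 7.31 in control in the other barcodes. Tnnc1, which encodes the calcium-binding troponin C, was at 6959 CPM with CLP plus stimulation, 5130 CPM with CLP, 4167 CPM in sham and 4883 CPM in control, 84.3-fold to 578-fold its level in the other barcodes. Mb, the oxygen store myoglobin, was 77.1-fold to 375-fold higher, and Ryr2, the ryanodine receptor, 16.1-fold to 129-fold. Atp2a2 was the least selective of these genes, at 3.3-fold to 11.3-fold, and other barcodes held it at 138 CPM with CLP plus stimulation, 159 with CLP, 120 in sham and 149 in control. Barcodes carrying Cdh5, which should lack the 5 marker genes, held them at 3.42 with CLP plus stimulation, 8.52 with CLP, 9.84 in sham and 12.7 in control per 10,000 UMIs, all below the threshold of 100. Single barcodes with Cdh5 reached that threshold in 0.109% of cases with CLP plus stimulation, 1.25% with CLP, 1.54% in sham and 1.68% in control, and the rule left them out. Barcodes with Cdh5 were deeper than cardiomyocytes, with medians of 4090 UMIs with CLP plus stimulation, 4526 with CLP, 4305 in sham and 2820 in control. A given number of stray UMIs is a smaller part of a deeper barcode. The level of stray marker UMIs at the depth of the cardiomyocytes was not tested.

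**Figure D2:**
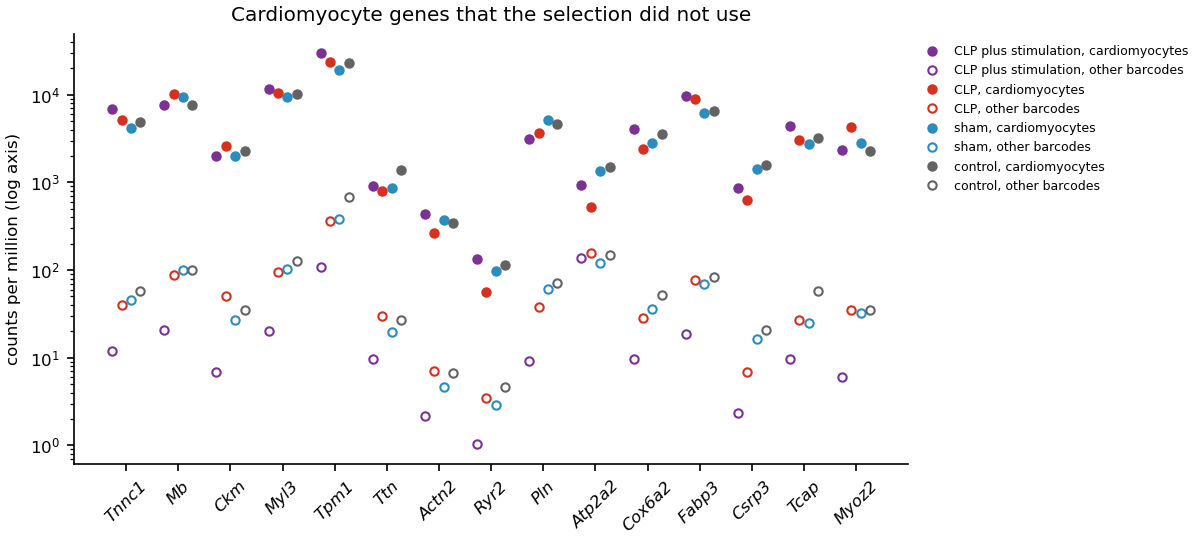
CPM (log axis) of 15 cardiomyocyte genes that the rule did not use, in the cardiomyocytes (filled) and in the other filtered barcodes (open) of each library. Every filled point lies above the open point of its library, with Atp2a2 at 3.3-fold to 11.3-fold, Tnnc1 at 84.3-fold to 578-fold and Myl3 at 80.7-fold to 587-fold.

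The cells formed a range and not 1 level. Between 26.7% and 31.9% of the cardiomyocytes of a library held 100 to under 300 marker UMIs per 10,000, and 2 cells in all held 1000 or more. In this lower range the median over the 15 further genes was 431 per 10,000 with CLP plus stimulation, 387 with CLP, 345 in sham and 258 in control, against 845 with CLP plus stimulation, 793 with CLP, 725 in sham and 857 in control in the cells from 300 to under 1000. Endothelial markers had a mean of 85.5 with CLP plus stimulation, 97.9 with CLP, 107 in sham and 164 in control per 10,000 in the lower range, against 11.0 with CLP plus stimulation, 27.1 with CLP, 27.6 in sham and 31.4 in control above it, so the lower range held more endothelial transcripts in each of the 4 libraries. Just inside the threshold, from 100 to 120, lay 33 cells, and just outside, from 80 to 100, lay 44 barcodes. The macrophage genes outside the rule summed to 6.31 with CLP plus stimulation, 5.37 with CLP, 7.77 in sham and 6.07 in control per 10,000 UMIs over the cardiomyocytes, with 54.2 with CLP plus stimulation, 33.6 with CLP, 87.9 in sham and 67.5 in control in the other barcodes. The erythroid markers, mostly haemoglobins, summed to 1.66 per 10,000 with CLP plus stimulation, 25.9 with CLP, 0.706 in sham and 36.1 in control. The 5 dendritic and 4 adipocyte markers were at 0 in the cardiomyocytes of every library.

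Most cardiomyocytes were ventricular by their light chains, a majority that the selection favours because Myl2 belongs to the rule. The other 20 were atrial. These 20 held more of the atrial genes Myl7, Myl4, Nppa and Sln than of the ventricular light chains Myl2 and Myl3, and numbered 1 with CLP plus stimulation, 5 with CLP, 6 in sham and 8 in control. They held 93.1% with CLP plus stimulation, 87.7% with CLP, 64.1% in sham and 99.2% in control of all atrial UMIs of the cardiomyocytes. In control the atrial cells were deep, with a median of 7038 UMIs, so 4330 of 4366 atrial UMIs came from 8 barcodes. Nppa, the atrial natriuretic peptide, had 891 counts in control, of which 817 came from 1 barcode. Of the 357 sham counts of Myl4, the atrial essential light chain, 222 came from 1 deep barcode outside these 20. Its log2 ratio for CLP over sham was -2.72, -1.54 without the cells over 3000 UMIs and -5.66 without the 20 atrial cells, so differences in atrial genes between the libraries rest on few barcodes.

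**Figure D3:**
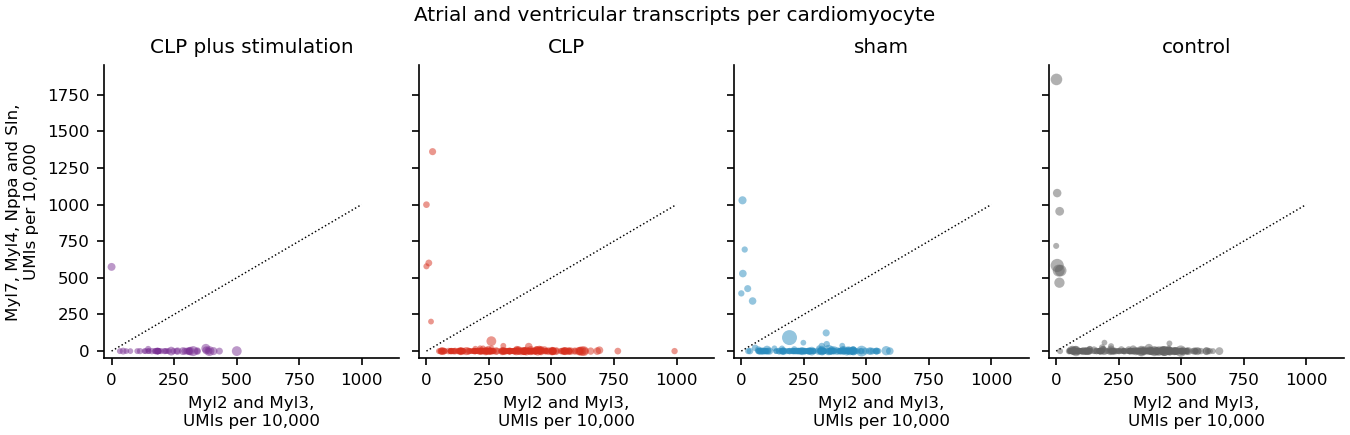
Atrial transcripts (Myl7, Myl4, Nppa and Sln, vertical) against ventricular light chains (Myl2 and Myl3, horizontal) in each cardiomyocyte, as UMIs per 10,000, 1 panel per library; a larger dot has more UMIs and the dotted line marks equality. Above the line lie 1 cell with CLP plus stimulation, 5 with CLP, 6 in sham and 8 in control. They hold most of the atrial transcripts found in the cardiomyocytes of their library. Most other cardiomyocytes lie along the horizontal axis.

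Between CLP and sham cardiomyocytes, acute phase and metal-binding genes were among those with the highest ratios. Of the 19 genes on that list 6 had at least 20 counts, and each was over 2-fold higher with CLP than in sham. Mt1 alone of the 6 had 20 counts in sham as well; Saa3, Lcn2, Mt2, Lrg1 and Serpina3n reached 20 through the CLP library, so the count of 6 carries no support beyond their own values. Over all 1969 genes measured this well, 5.59% were over 2-fold higher with CLP, 9.55% were over 2-fold lower, 873 had a positive ratio and the median was -0.10. Another scaling (TMM) placed the centre of the ratios at -0.11 and set it to 0, so that all ratios moved up and 137 of 274 calls were higher, where 36.9% of the 298 calls were higher before it. Here and below, called means past 2-fold among genes with at least 20 counts over both libraries, which is a size and not a test.

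Saa3, an acute phase serum amyloid (chromosome 7, 46711998 to 46715700, minus strand, GRCm38), was detected in the cardiomyocytes of both septic libraries, with no count in those of sham or control. It had 311 counts in CLP plus stimulation, 1196 counts in CLP, 0 in sham and 0 in control, or 5165 CPM with CLP plus stimulation, 5629 with CLP, 0 in sham and 0 in control. All 47 CLP plus stimulation cells and 204 of 206 CLP cells held at least 1 UMI of it, against 0 of 163 sham cells and 0 of 226 control cells. At this depth a count of 0 allows a Saa3 UMI in up to 1.84% of sham cells and 1.33% of control cells, and it sets no limit on cells that express the gene below detection. Against a sham floor of 3 counts the CLP plus stimulation level was at least 317-fold higher, and the CLP level was at least 345-fold higher. The other barcodes of the libraries held more, 27769 CPM with CLP plus stimulation, 17315 with CLP, 5.7 in sham and 0.6 in control. Macrophage-gene barcodes held 49598 and 51005 CPM in the CLP plus stimulation and CLP libraries, and Cdh5 barcodes held 3405 and 1281 CPM there. After thinning every barcode to 500 UMIs, 93.6% of cardiomyocytes with CLP plus stimulation and 92.7% with CLP had a Saa3 UMI, against 80.7% and 64.9% of the other barcodes.

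Lcn2, the iron-trapping protein lipocalin 2 (chromosome 2, 32384633 to 32388252, minus strand), was likewise higher in both septic libraries than in sham and control, at a lower level than Saa3. It had 62 counts with CLP plus stimulation, 160 with CLP, 0 in sham and 1 in control, which is 1030 CPM with CLP plus stimulation, 753 CPM with CLP, 0 in sham and 3.3 CPM in control. The CLP level was at least 46.2-fold that of sham. Serpina3n, a protease inhibitor of the acute phase, had 1 count with CLP plus stimulation, 26 with CLP and 0 in sham, and its CLP level was at least 7.51-fold that of sham. Neutrophil markers also differed between these libraries, at 17.3 with CLP plus stimulation, 16.8 with CLP, 2.55 in sham and 1.07 in control per 10,000 UMIs of the cardiomyocytes, which was 0.107 with CLP plus stimulation, 0.117 with CLP, 0.0933 in sham and 0.124 in control of their level in the other barcodes. Saa3 in cardiomyocytes stood at 0.186 and 0.325 of its level in the other barcodes of the CLP plus stimulation and CLP libraries, and Lcn2 at 0.171 and 0.295. The part of free RNA in these cardiomyocyte levels was not tested.

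The metallothioneins Mt1 and Mt2, small proteins that bind zinc and copper, were higher with CLP than in sham and higher again with CLP plus stimulation. Mt1 (chromosome 8, 94179082 to 94180327, plus strand) had 881 counts with CLP plus stimulation, 1507 with CLP, 181 in sham and 258 in control, or 14632 CPM with CLP plus stimulation, 7093 CPM with CLP, 983 CPM in sham and 861 CPM in control. Its summed level was highest with CLP plus stimulation, and sham and control were not past 2-fold apart. The log2 ratio was 2.85 (2.63 to 3.08) for CLP over sham and 1.04 (0.92 to 1.17) for CLP plus stimulation over CLP. Unlike Saa3, Mt1 was higher in cardiomyocytes than in the other barcodes in both septic libraries, where those held 11997 and 4019 CPM, and lower in sham and control, where they held 1955 and 2427 CPM. The median cell held 134 UMIs of Mt1 per 10,000 with CLP plus stimulation, 62.6 with CLP, 0 in sham and 5.84 in control, so the typical cell of either septic library held more than that of sham or control. Mt2, its neighbour (94172664 to 94173568, plus strand), stood at 2142 CPM with CLP plus stimulation, 753 with CLP, 76.1 in sham and 40.0 in control, with log2 ratios of 3.26 (2.52 to 4.21) for CLP over sham and 1.51 (1.16 to 1.85) for CLP plus stimulation over CLP. Unlike Mt1, Mt2 was lower in cardiomyocytes than in the other barcodes of both septic libraries, which held 3589 CPM with CLP plus stimulation and 1696 with CLP. The other barcodes of sham held 398 CPM of Mt2. Across the processing alternatives the Mt1 ratio for CLP over sham ran between 2.65 and 3.07.

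The promoters of this gene pair are shown because both genes were highest with CLP plus stimulation and next highest with CLP. Neither was past 2-fold between sham and control. The windows run from 250 bases before to 50 after the start in RefSeq (GRCm38.p6), at chr8:94178839-94179138 for Mt1 and chr8:94172368-94172667 for Mt2, both on the plus strand and printed 5′ to 3′. Capitals mark TGCNCNC, read on both strands. It is a looser form of the core of the element bound by the metal-responsive factor MTF1, which has only A or G after TGC.
Mt1: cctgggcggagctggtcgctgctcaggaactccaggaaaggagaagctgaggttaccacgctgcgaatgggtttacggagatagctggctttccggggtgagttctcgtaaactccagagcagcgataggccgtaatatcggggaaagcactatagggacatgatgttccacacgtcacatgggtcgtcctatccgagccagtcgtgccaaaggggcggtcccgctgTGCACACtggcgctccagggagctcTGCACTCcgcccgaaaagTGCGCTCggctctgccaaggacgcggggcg
Mt2: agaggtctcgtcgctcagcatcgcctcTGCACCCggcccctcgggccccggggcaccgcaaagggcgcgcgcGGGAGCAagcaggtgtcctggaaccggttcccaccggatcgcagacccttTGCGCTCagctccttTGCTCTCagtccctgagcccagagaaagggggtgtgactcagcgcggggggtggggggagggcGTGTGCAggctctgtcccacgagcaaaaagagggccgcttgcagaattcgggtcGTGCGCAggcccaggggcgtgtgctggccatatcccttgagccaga
The Mt1 window held 3 matches to this looser form and the Mt2 window 6. In Mt2 the stretches TGCTCTC and GGGAGCA, the latter read on the other strand, have T after TGC and so fall outside the stricter core. Of 32851 promoter windows of the same length 51.0% held at least 1 match, 7.10% at least 3 and 0.225% at least 6. The windows of Saa3 and Lcn2 were searched on both strands for a single narrow form of the kappaB motif and held none, beside 1.63% of all windows with a match. Other forms of the kappaB motif were not searched. A match describes the letters and not binding, and no match says only that the form searched is not in the window.

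Other genes of the response to inflammation differed less. Lrg1, a secreted acute phase glycoprotein, had 24 counts with CLP plus stimulation, 33 with CLP, 4 in sham and 12 in control, or 399 CPM with CLP plus stimulation, 155 with CLP, 21.7 in sham and 40.0 in control, and its log2 ratio for CLP over sham was 2.69 (1.35 to 4.80). Of 10 measured genes of the cytokine response 3 were called higher with CLP than in sham and none lower, with a median of 0.63. These were Cebpb and Cebpd, transcription factors of the acute phase, and Cd14, a lipopolysaccharide co-receptor. Over all 1969 genes 5.59% were called higher and 9.55% lower in this comparison. Cebpb stood at 216 CPM with CLP plus stimulation, 278 with CLP, 92.4 in sham and 80.0 in control, so both septic libraries lay above sham and control. Of 8 interferon-response genes 1, the antiviral membrane protein gene Ifitm3, was called higher, at 731 CPM with CLP plus stimulation, 918 with CLP, 456 in sham and 324 in control and a log2 ratio of 1.00 (0.63 to 1.39). The glucocorticoid-response list had 4 of 9 called higher with CLP and none lower, at a median of 0.98, but 3 of those 4, Lcn2, Mt2 and Pdk4, also stand in other lists here.

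**Figure D4:**
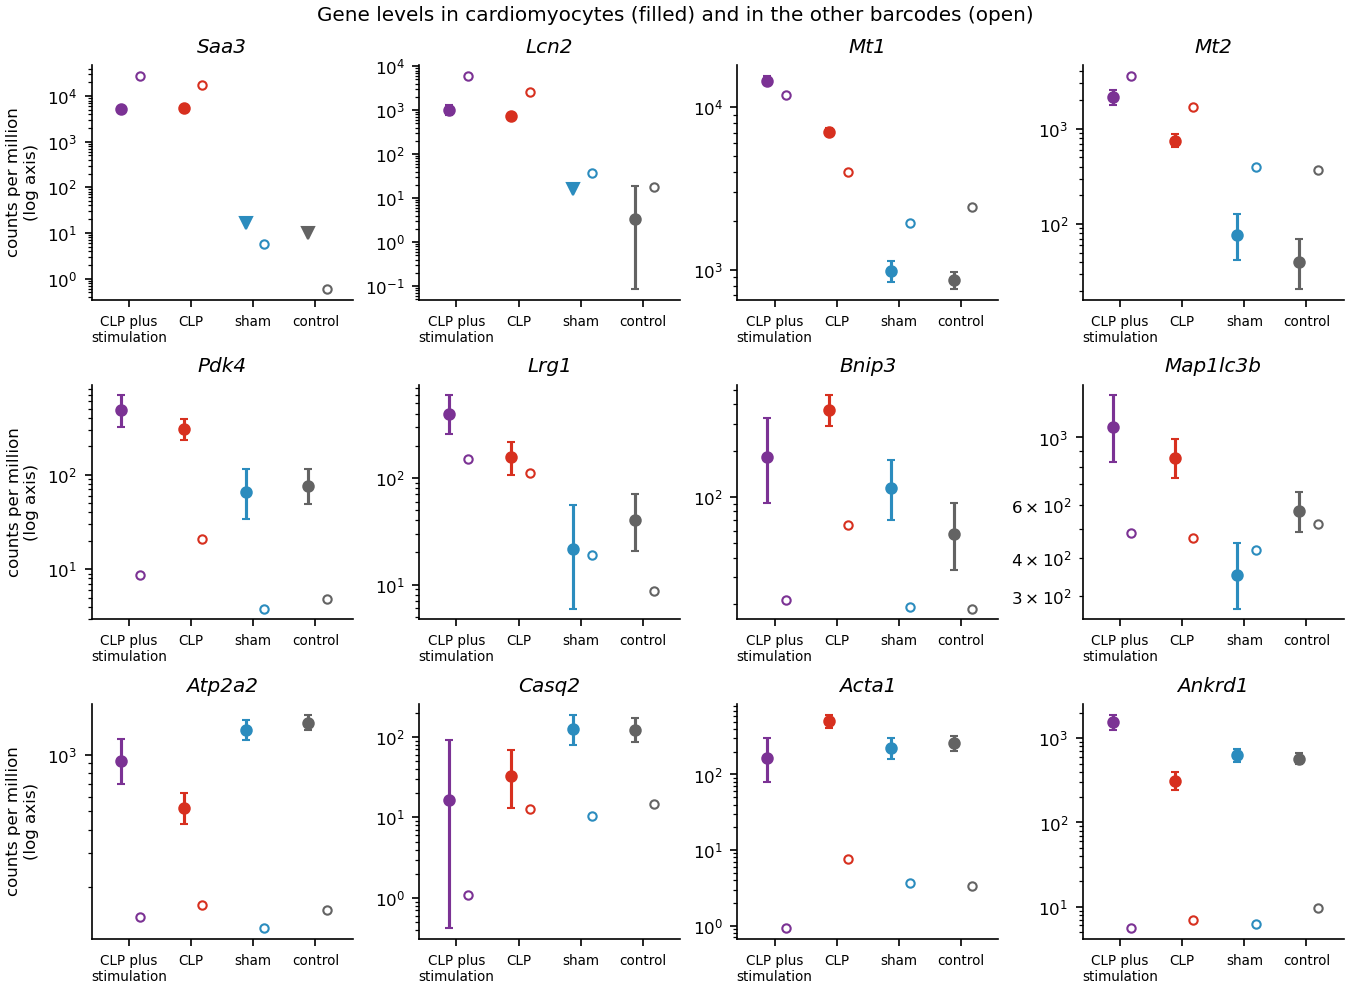
CPM (log axis, scaled to each gene) of 12 genes in the summed cardiomyocytes (filled, with exact 95% Poisson intervals) and in the other filtered barcodes (open) of each library; a triangle marks a floor of 3 counts where the gene had none. Saa3, Lcn2, Mt1, Mt2, Pdk4 and Lrg1 are higher in both septic libraries than in sham and control, Atp2a2 and Casq2 are lower in both, and Ankrd1 and Acta1 set the 2 septic libraries apart.

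Pdk4, the kinase that shuts off pyruvate dehydrogenase and so favours fat over glucose, was higher in the cardiomyocytes of both septic libraries than in those of sham. It (chromosome 6, 5483351 to 5496309, minus strand) had 29 counts with CLP plus stimulation, 65 with CLP, 12 in sham and 23 in control, or 482 CPM with CLP plus stimulation, 306 CPM with CLP, 65.2 CPM in sham and 76.7 CPM in control. The other barcodes held 8.7 CPM with CLP plus stimulation, 20.9 with CLP, 3.8 in sham and 4.9 in control. Its log2 ratio was 2.18 (1.33 to 3.25) for CLP over sham, and 1.82 to 2.42 across the alternatives. At 500 UMIs 17.0% of CLP plus stimulation cells, 13.1% of CLP cells, 3.1% of sham cells and 2.7% of control cells held a Pdk4 UMI, and without thinning 42.6% with CLP plus stimulation, 22.8% with CLP, 6.75% in sham and 9.29% in control did. Of the other barcodes at most 1.16% held one at 500 UMIs in any library.

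The other genes of fuel use differed little between CLP and sham. Of 23 measured genes of fatty acid use 2 were called higher with CLP, Pdk4 and the lipid droplet protein gene Plin5 (0.85 without the cells over 3000 UMIs), and none lower, at a median of 0.09. None of 19 citric acid cycle genes was called, and 1 of 14 genes of glucose use was called lower, the muscle phosphofructokinase Pfkm at -1.50 (-2.46 to -0.66). All 13 measured genes of the mitochondrial genome stood lower with CLP than in sham, with a median of -0.35 and none past 2-fold. The same 13 stood mostly higher in sham than in control, 11 of 13 with a median of 0.48. For mt-Nd2, which encodes a complex I subunit, CLP lay between sham and control, at 4899 CPM with CLP plus stimulation, 5427 with CLP, 6509 in sham and 3779 in control. The rule itself limits the mitochondrial share.

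Genes of protein breakdown and autophagy were mostly higher with CLP than in sham. Of 14 measured genes 12 had a positive log2 ratio, 6 were called higher, none was called lower and the median was 0.74. Over all 1969 genes 873 ratios were positive, 5.59% were called higher, 9.55% lower and the median was -0.10. Ubb, a ubiquitin gene, stood at 3139 CPM with CLP plus stimulation, 2857 with CLP, 1244 in sham and 1751 in control, with a log2 ratio of 1.20 (0.98 to 1.42). Map1lc3b, which coats the autophagosome, stood at 1080 CPM with CLP plus stimulation, 857 with CLP, 353 in sham and 570 in control, at a log2 ratio of 1.27 (0.86 to 1.71). Both septic libraries lay above both others for these genes. Bnip3, a receptor for the autophagy of mitochondria, stood at 183 CPM with CLP plus stimulation, 367 with CLP, 114 in sham and 56.7 in control, at a log2 ratio of 1.66 (0.98 to 2.46), with CLP alone highest. Sqstm1, the cargo adaptor p62, was at 1.30 (0.36 to 2.42) and Gabarapl1, another autophagosome coat, at 1.38 (0.07 to 3.07). Fbxo32, the muscle ubiquitin ligase atrogin-1, stood at 116 CPM with CLP plus stimulation, 118 with CLP, 38.0 in sham and 143 in control. Its ratio for CLP over sham was 1.56 (0.38 to 3.08), but control was as high as both septic libraries, and sham over control was -1.83 (-3.31 to -0.75), or -0.74 without the cells over 3000 UMIs.

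Calcium-handling genes were mostly lower with CLP than in sham. Of 11 measured genes 5 were called lower and none higher, 1 of 11 had a positive ratio, and the median was -0.77, or -0.67 without the cells over 3000 UMIs. Over all 1969 genes 9.55% were called lower and 5.59% higher, 873 ratios were positive and the median was -0.10. Atp2a2 (chromosome 5, 122453513 to 122502225, minus strand) had 56 counts with CLP plus stimulation, 111 with CLP, 249 in sham and 444 in control, or 930 CPM with CLP plus stimulation, 522 CPM with CLP, 1353 CPM in sham and 1481 CPM in control. Its log2 ratio for CLP over sham was -1.37 (-1.71 to -1.04), but -0.67 without the cells over 3000 UMIs, so the 2-fold size rests on those cells. Casq2, the calcium buffer calsequestrin, had 1 count with CLP plus stimulation, 7 with CLP, 23 in sham and 37 in control and a ratio of -1.85 (-3.39 to -0.66). Srl, the reticulum protein sarcalumenin, was at -2.04 (-3.27 to -1.06), and Jph2, the junctophilin that ties the reticulum to the cell membrane, at -1.07 (-2.56 to 0.22) on 8 CLP and 15 sham counts. The fifth was Sln, an atrial inhibitor of the pump, which the atrial cells carry. Pln, phospholamban, stood at 3106 CPM with CLP plus stimulation, 3676 with CLP, 5178 in sham and 4629 in control, at a log2 ratio of -0.49 (-0.63 to -0.36), lower in both septic libraries but short of 2-fold.

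Sarcomere genes outside the rule showed no shared direction between CLP and sham. Of 23 measured 1 was called higher and 7 lower, with a median of -0.14 that became 0.09 without the cells over 3000 UMIs. Over all 1969 genes 5.59% were called higher and 9.55% lower. Csrp3, the Z-disc protein MLP, stood at 864 CPM with CLP plus stimulation, 626 with CLP, 1440 in sham and 1578 in control, with a ratio of -1.20 (-1.51 to -0.90) that was -1.19 without the deep cells. Mybpc3, myosin-binding protein C, was at -1.14 (-1.63 to -0.67) with all cells and -0.83 without the deep ones. Acta1, the skeletal actin that the fetal and stressed heart expresses, was the 1 called higher, at 166 CPM with CLP plus stimulation, 508 with CLP, 223 in sham and 260 in control, at a log2 ratio of 1.18 (0.66 to 1.75). CLP alone stood above the other libraries for it. Among those short of 2-fold, Tpm1 (tropomyosin) was at 0.31 (0.25 to 0.37), Myl3 at 0.16 (0.07 to 0.25) and Ttn (titin) at -0.14 (-0.46 to 0.18).

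Other called genes fell outside these groups. The inducible chaperones Hspa1a and Hspa1b were higher with CLP than in sham, at 1.36 (0.72 to 2.08) and 2.57 (1.51 to 4.04), but control lay above sham too, with Hspa1b at 49.8 CPM with CLP plus stimulation, 240 with CLP, 38.0 in sham and 163 in control. Hmox1, the heme-degrading oxygenase, was at 2.11 (0.69 to 4.25) on 22 CLP and 4 sham counts. Of 16 immediate early genes 1 was called higher and 3 lower, at a median of -0.31. Fos stood at 249 CPM with CLP plus stimulation, 329 with CLP, 761 in sham and 770 in control, lower in both septic libraries. Genes with the highest ratios over the whole table, beyond those above, were Cxcl9, an interferon-induced chemokine whose 20 CLP counts included 6 from 1 cell, and Mxd4, Tfdp2 and Sbds at 2.11, 1.95 and 1.83. The lowest ratios were those of Lmod3 at -2.76, Myl4 at -2.72, Dpysl2 at -2.65, Sarnp at -2.59, Ccnd2 at -2.42, Rock2 at -2.37, Lbh at -2.19 and Atp1b1 at -2.19. For Myl4, Dpysl2, Ccnd2, Rock2 and Atp1b1 the sham counts included 222 of 357, 17 of 24, 14 of 25, 13 of 33 and 35 of 45 from 1 barcode, and Atp1b1, a sodium pump subunit, was at -0.15 without the cells over 3000 UMIs. Dpysl2 turned to 0.58 with at most 10% mitochondrial UMIs.

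**Figure D5:**
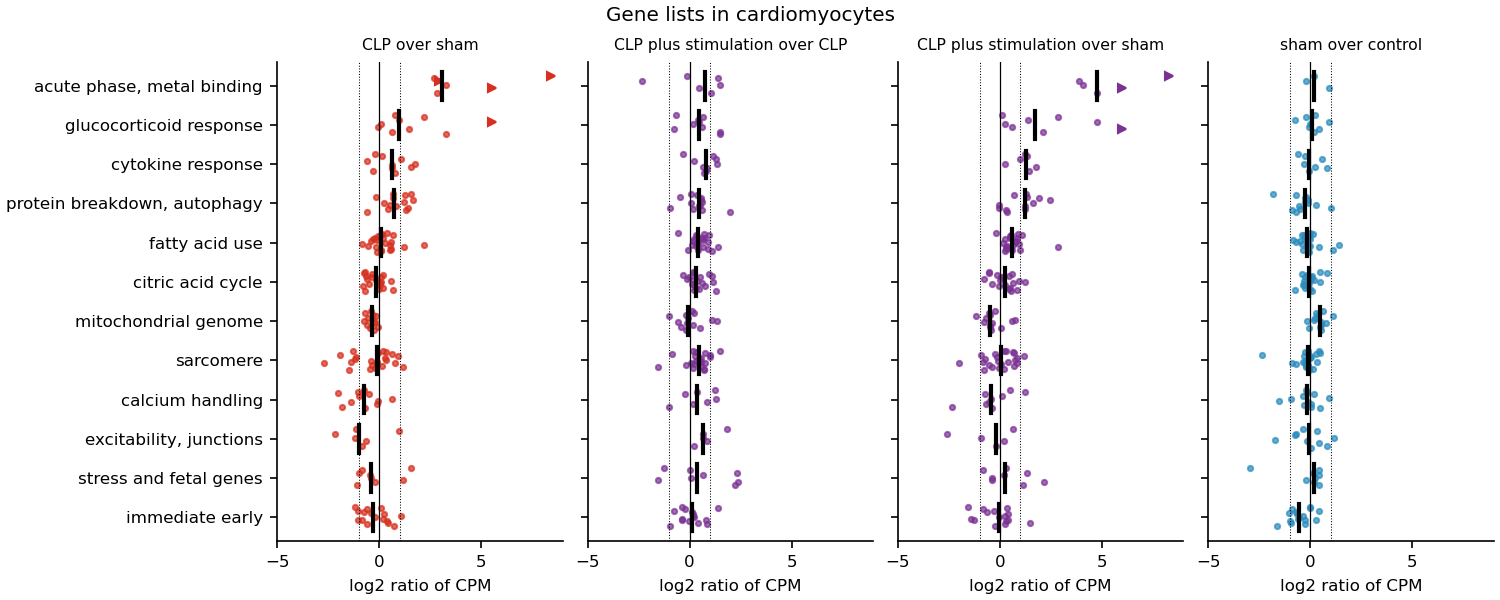
Log2 ratios of CPM in the summed cardiomyocytes for 12 gene lists (rows) in 4 comparisons (panels); each dot is a gene with at least 20 counts over both libraries, a triangle is a bound for a gene at 0 in the second library, black lines are medians and dotted lines mark 2-fold. In CLP over sham the acute phase genes, most of them measured well in the CLP library alone, lie right of the 2-fold line, and calcium handling has a median of -0.77.

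Cardiomyocytes with CLP plus stimulation and with CLP differed in other genes. Of 1399 genes measured well enough 10.4% were called higher with CLP plus stimulation and 6.72% lower, at a median of 0.15, and 824 of the 1399 ratios were positive. TMM scaling placed their centre at 0.10 and set it to 0, so that all ratios moved down and 50.4% of 234 calls were higher, where 60.7% of 239 were higher before it. The acute phase list had 3 of 6 called higher, Mt1, Mt2 and Lrg1, and 1 lower, Serpina3n at -2.32 (-8.24 to -0.28) on 1 count against 26. Saa3 was close, at -0.12 (-0.31 to 0.06). The other barcodes held 27769 CPM of it with CLP plus stimulation and 17315 CPM with CLP.

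Ankrd1, a stretch-responsive protein of the sarcomere and nucleus (chromosome 19, 36111961 to 36120099, minus strand), was among the genes that differed most. It had 93 counts with CLP plus stimulation, 66 with CLP, 115 in sham and 172 in control, or 1545 CPM with CLP plus stimulation, 311 CPM with CLP, 625 CPM in sham and 574 CPM in control. The CLP plus stimulation library lay above all others and CLP below all. The ratio for CLP plus stimulation over CLP was 2.31 (1.84 to 2.79), 1.66 to 2.70 across the alternatives, although 29 of its 93 counts came from 1 cell. For CLP over sham it was called lower, with an interval of -1.47 to -0.56. Ankrd23, of the same family, stood at 399 CPM with CLP plus stimulation, 84.7 with CLP, 185 in sham and 137 in control, at a log2 ratio of 2.22 (1.29 to 3.20), and Rcan1, the calcineurin inhibitor, at 316 CPM with CLP plus stimulation, 61.2 with CLP, 70.6 in sham and 63.4 in control, at a log2 ratio of 2.35 (1.27 to 3.51). Acta1 went the other way, at -1.55 (-2.71 to -0.68) on 10 against 108 counts. Of 8 measured stress and fetal genes 3 were called higher and 2 lower.

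Fuel and sarcomere genes mostly stood higher with CLP plus stimulation than with CLP, few of them past 2-fold. Over all 1399 genes 824 ratios were positive as well, with a median of 0.15 and 10.4% called higher. For fatty acid use 19 of 21 ratios were positive with a median of 0.41, and 2 were called, Acadvl at 1.40 (0.69 to 2.09) and Hadhb at 1.08 (0.34 to 1.78), both enzymes of long-chain beta-oxidation. Acadvl stood at 531 CPM with CLP plus stimulation, 202 with CLP, 255 in sham and 280 in control. For the citric acid cycle 16 of 19 were positive with a median of 0.32, and Sdha, Sucla2 and Got1 were called higher, each short of 2-fold without the cells over 3000 UMIs. For sarcomere genes 20 of 23 were positive with a median of 0.47, with Nebl, Mybpc3 and Myl7 called higher and Acta1 lower. As a mean over barcodes the medians were 0.40 for fatty acid use, 0.38 for the citric acid cycle and 0.26 for sarcomere genes. The Myl7 call rests on 38 of 40 counts from 1 cell, and it turned to -1.57 with a marker minimum of 300 and to -3.91 without cells holding other types' markers. In calcium handling Hrc and Ryr2 were called higher and Trdn lower among 7 measured, and Atp2a2 was at 0.84 (0.34 to 1.31).

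Heat shock genes split in this comparison. Hspa1a and Hspa1b were called lower with CLP plus stimulation, at -1.08 (-2.26 to -0.19) and -2.06 (-4.59 to -0.64), while Hspb6, a small heat shock protein of muscle, was higher at 814 CPM with CLP plus stimulation, 268 with CLP, 321 in sham and 344 in control, at a log2 ratio of 1.60 (1.02 to 2.18). In the cytokine response Nfkbia, the inhibitor of NF-kappaB, was at 515 CPM with CLP plus stimulation, 207 with CLP, 190 in sham and 233 in control, at a log2 ratio of 1.32 (0.60 to 2.01), and Stat3 and Tnfaip3 were called higher too, out of 9 measured. Cdkn1a, the cell cycle inhibitor p21, was at 731 CPM with CLP plus stimulation, 259 with CLP, 168 in sham and 147 in control, at a log2 ratio of 1.50 (0.89 to 2.10). Sod1, the cytosolic superoxide dismutase, was lower at 49.8 CPM with CLP plus stimulation, 217 with CLP, 179 in sham and 167 in control, at a log2 ratio of -1.91 (-4.45 to -0.48), on 3 counts against 46. Among the highest ratios of the whole table were also the splicing factors Srsf5 at 2.48 and Srsf3 at 2.30, Atcayos at 2.11, Ctla2a at 2.08, Csnk1a1 at 1.93 and Pde4dip at 1.82. The lowest included Dnajc4 and Thrsp, with 0 counts against 23 and 20 and so at least 2.17-fold and 1.89-fold lower, then Commd3, Cir1, Kiz and Cxcl9 with 1 count each, and Psmc5, a proteasome ATPase, at -1.83. The other barcodes also held less of each of these lowest genes with CLP plus stimulation, at log2 ratios from -5.69 for Thrsp to -0.17 for Psmc5. They also held more Ctla2a, Srsf3 and Srsf5, at 1.59, 0.90 and 0.54, but less Pde4dip, Atcayos and Csnk1a1, at -0.88, -0.86 and -0.18.

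CLP plus stimulation over sham shares a library with each comparison above, so its values are set beside theirs and are no further evidence. Of 1390 genes 10.6% were called higher and 9.35% lower, 19.9% in all. The 5 measured acute phase genes were all called higher, 4 of them with under 20 counts in sham, with Mt1 at 3.89 (3.66 to 4.13), Mt2 at 4.77 (4.02 to 5.73) and Lrg1 at 4.06 (2.66 to 6.18). Pdk4 was at 2.85 (1.87 to 3.99), beside 2.18 for CLP over sham. Also among the 8 highest ratios were Ctla2a at 3.63, Srsf5 at 2.54, Msrb1 at 2.34 and Atcayos at 2.26. In the other barcodes these stood at 3.19, -0.18, 1.64 and -0.95 in that order. For protein breakdown 7 of 12 were called higher at a median of 1.23, with the muscle ring finger ligases Trim63 at 1.28 (-0.02 to 2.51), which was 0.27 without the cells over 3000 UMIs, and Trim54 at 1.21 (0.31 to 2.07) and the lysosomal protease Ctsl at 2.46 (1.41 to 3.64). Calcium handling had 1 of 9 called higher and 1 lower, at a median of -0.42, with Atp2a2 at -0.53 (-0.99 to -0.12). The lowest ratios were those of Cavin1, Asb2, Dpysl2, Cd34, Macf1, Lmod3 and Smim14, each at 0 counts with CLP plus stimulation and so lower by at least 3.38, 2.94, 2.62, 2.40, 2.29, 2.18 and 2.18 times in that order, and Nfib with 1 count. Of the 24 Dpysl2 counts in sham 17 came from 1 barcode. The other barcodes also held less of each of those 7 genes with CLP plus stimulation than in sham, at log2 ratios from -3.56 for Cavin1 to -0.80 for Macf1. Endothelial markers summed to 20.4 per 10,000 cardiomyocyte UMIs with CLP plus stimulation and 36.6 in sham, and their part in these ratios was not tested.

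Sham and control cardiomyocytes had the smallest share of called genes among the 4 comparisons. Of 2541 genes 2.36% were called higher in sham and 4.96% lower, 7.32% in all, with 1161 positive ratios and a median of -0.05, and TMM scaling made 42.6% of 188 calls higher where 32.3% of 186 were higher before it. The 4 called atrial genes were lower in sham, with Nppa at -2.96 and Myl7 at -2.35, and Nppa turned to 0.20 and Myl7 to 1.32 when the 20 atrial cells were left out. Of 16 immediate early genes 2 had a positive ratio, with a median of -0.57, and Atf3 and Btg2 were called, at -1.65 (-2.39 to -1.03) and -1.03 (-1.77 to -0.38), but at -0.76 and -0.40 without the cells over 3000 UMIs. Atf3 stood at 99.6 CPM with CLP plus stimulation, 207 with CLP, 125 in sham and 400 in control, with control above all others. None of the 3 measured acute phase genes was called. Hspa1b was at -2.02, with 21 of 49 control counts from 1 cell, and the remaining lowest ratios were those of Ndufa4l2, Igfbp5, Nsd1, Rdh14 and Csrp2, between -2.70 and -2.04. Of 26 control counts of Ndufa4l2 13 came from 1 cell, and Igfbp5 was at -2.30 with all cells and -0.68 without the 20 atrial cells. The highest ratio was that of Dpysl2 at 2.23, which was 1.00 without the cells over 3000 UMIs, turned to -1.13 with at most 10% mitochondrial UMIs and had 17 of its 24 sham counts in 1 barcode. It was followed by Ube2n at 1.83, Fem1a at 1.67, Cd34 at 1.55, Plekho1 and Pcmtd1 at 1.54, Hand2os1 at 1.52 and Ucp2 at 1.43.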

How the data were processed

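The deposited files hold whole-number UMI counts per gene and barcode; per the file headers the authors made them with Cell Ranger 5.0.0, and the submitters' processing notes name STAR and mm10. The barcodes were those of the deposited matrices, which totalled 54611436, 58330756, 58028279 and 59465046 UMIs over 8831 CLP plus stimulation, 8741 CLP, 9538 sham and 15964 control barcodes. The cardiomyocytes and the gene lists were chosen with earlier results of these data known.

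From the counts, UMIs were summed over the cardiomyocytes of a library and divided by their total to give CPM, whose intervals are exact Poisson. Each log2 ratio of 2 CPM values has a prior count of 0.5 added and an exact conditional binomial interval. A gene was called past 2-fold with at least 20 counts over both libraries. A gene with 0 counts was set against a floor of 3 counts in that library. Cells are not replicates, so no p-value was computed. The steps were tested on simulated Poisson counts drawn from the summed means, without single cells. That test does not cover genes whose counts sit mostly in 1 barcode. Doublets were left in; leaving out the highest Scrublet scores in scanpy took 0, 3, 0 and 20 cells (CLP plus stimulation, CLP, sham, control). The strand is that of a 3′ UMI protocol, and paralogs that share sequence, such as the haemoglobin genes, may share reads.

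Beside list genes, the text names for each comparison the 8 highest and 8 lowest log2 ratios among genes that reach 50 CPM and 20 counts in whichever library is higher, in at least 5 of its cardiomyocytes, and not over 3 times as high in its other barcodes. Mitochondrial, ribosomal, haemoglobin, immunoglobulin and sex-linked genes, unnamed models, genes of the rule and cell type markers were not eligible. Alternatives changed the marker minimum, depth, mitochondrial limit, doublets, other types' markers, shared barcodes, scaling, averaging and count minimum. The others, a marker minimum of 300, no atrial cells and no cells over 3000 UMIs, were chosen after seeing the data. Gene positions are from GENCODE vM21 and matched 500 of 500 genes reported; promoter windows are from RefSeq. Python 3.11.15, numpy 2.4.6, pandas 2.3.3, scipy 1.17.1, scanpy 1.11.5 and matplotlib 3.10.9 were used.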

Additional observations from a re-analysis of the deposited data

How the results depend on the processing

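No paired analysis was possible because each group has 1 library. Precision is set by the 47 CLP plus stimulation cells and by a median depth near 800 UMIs, so genes under about 20 counts give no usable ratio. Of 1318 list medians under the alternatives 52 moved by more than a fixed step, and 2 changed sign where the main median was past 2-fold. Sign changes of smaller list medians were not counted. Of 2970 values of single genes 16 changed sign from a call past 2-fold, and 122 moved beyond their interval. A marker minimum of 1000 per 10,000 left 2 cells and gave no value. The cause of the changes below was not tested.

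The share of cardiomyocytes, in the order CLP plus stimulation, CLP, sham and control, was 0.370%, 1.81%, 1.30% and 1.03% with a marker minimum of 300; 0.293%, 0.963%, 0.618% and 0.604% from 1000 UMIs; 0.341%, 1.86%, 1.10% and 1.08% with at most 10% mitochondrial UMIs; 0.877%, 2.93%, 2.31% and 1.87% with at most 50%; and 0.220%, 0.780%, 0.881% and 0.660% without cells holding other types' markers. The log2 ratio of shares for CLP over sham was -0.18 in the last case and 0.75 with at most 10% mitochondrial UMIs, where sham over control was 0.025. From 1000 UMIs it was -1.72 for CLP plus stimulation over CLP and -1.08 for CLP plus stimulation over sham.

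For CLP over sham 298 genes were called, and 192 from 1000 UMIs, 175 with at most 10% mitochondrial UMIs, 179 without other types' markers, 85 with at least 50 counts and 5606 with no count minimum. For CLP plus stimulation over CLP 239 were called, and 154 from 1000 UMIs, 109 without other types' markers, 62 with at least 50 counts and 3561 with no minimum. For CLP plus stimulation over sham 277 were called, and 162, 135 with at most 10% mitochondrial UMIs, 176, 69 and 3867 in the same cases. For sham over control 186 were called, and 321 as a mean over barcodes, 36 with at least 50 counts and 3830 with no minimum.

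Of single genes, for CLP over sham Dpysl2 was 0.58 with at most 10% mitochondrial UMIs. For CLP plus stimulation over CLP Myl7 was -1.57 with a marker minimum of 300 and -3.91 without other types' markers, where Bst2 was 0.48. For sham over control Atp1b1 was -0.34 and Dpysl2 -1.13 with at most 10% mitochondrial UMIs. Without atrial cells the atrial list median was 1.32, Dnajb1 0.18, Gpx3 0.87, Myl7 1.32, Nppa 0.20 and Sln 0.48. Without cells over 3000 UMIs they were 0.16 for the atrial list, 0.066 for Dnajb1, 1.71 for Gpx3, 0.75 for Myl7 and 0.37 for Nppa, and Gpx3 was 0.42 as a mean over barcodes.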

Other observations

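The heart's natriuretic peptide gene Nppb, a marker of wall stress, had 7 counts with CLP plus stimulation, 0 with CLP, 10 in sham and 7 in control, too few for a ratio. Gja1, the main gap junction connexin, had 0 counts with CLP plus stimulation, 0 with CLP, 7 in sham and 13 in control, while other barcodes held it at 60.5, 58.4, 50.1 and 48.7 CPM in the same order. Lrrc10, a heart-restricted leucine-rich repeat protein, had 17 counts with CLP plus stimulation, 38 with CLP, 10 in sham and 35 in control, a log2 ratio of 1.67 (0.69 to 2.89) for CLP over sham and -1.05 (-2.28 to -0.06) for sham over control. Of 13 cardiomyocyte genes outside the rule (the 15 without Atp2a2 and Tpm1), 32.0% of all UMIs in filtered barcodes lay in the cardiomyocytes with CLP plus stimulation, 27.0% with CLP, 22.0% in sham and 26.9% in control, so most of these transcripts sat in other barcodes.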
